A study of Rattus norvegicus with 10 samples.

Results

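Collagens build most of the extracellular matrix, the matrix metalloproteinases (MMPs) cut it, the tissue inhibitors of metalloproteinases (TIMPs) block that cutting, and the lysyl oxidases cross-link collagen fibres. Genes were taken by symbol: every collagen chain (Col, a number, a, a number), every Mmp and Timp gene, and Lox, Loxl1 and Loxl2. Of 75 such symbols in the rat gene table, 45 were matched to a probe of the array and 30 were not, and the 45 were drawn from 13426 genes tested. They comprised 18 collagen chains, 21 MMPs, 4 TIMPs and 2 lysyl oxidases, read by 58 of 40945 probes. Col4a2, Col6a1, Col6a3, Col15a1 and Lox were among the symbols that were not matched.

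The study asked how total-body irradiation (TBI) and MASM, a synthetic derivative of the plant alkaloid matrine, altered gene expression in the liver of male Wistar rats, whose age was not given in the sources used here. The control group (3 rats) received neither MASM nor radiation. The TBI group (3 rats) received 6.5 Gy from a cobalt source at 2 Gy/min without MASM. The MASM+TBI group (4 rats) received the same radiation after MASM given into the stomach at 30 mg/kg per day for 3 days, and liver was taken 24 h after irradiation. No rat of the array series received MASM without radiation. Each liver was read on 1 single-colour array, and values are log2 intensities after quantile normalization, a scale on which a difference of 1.00 is a doubling.

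In the liver, fibrillar collagens lie mainly around the portal tracts and central veins, and hepatic stellate cells and portal fibroblasts are their main source. Basement membrane and sheet-forming collagens underlie bile ducts and vessels and line the space beside the sinusoids. MMPs are made as inactive precursors; the membrane-type enzyme Mmp14 activates Mmp2 at the cell surface together with Timp2, while macrophages and neutrophils bring other MMPs of their own.

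The arrays fitted their labels in tissue and in irradiation. Albumin measured between 17.57 and 17.89 in every rat. Cdkn1a, the cell-cycle inhibitor that p53 induces after DNA damage, measured 8.01, 8.25 and 8.84 in the controls, 13.47, 13.67 and 14.06 in the TBI rats, and 13.06, 13.23, 12.80 and 13.58 in the MASM+TBI rats. TBI rat 3 stood apart in array brightness, with a median intensity of 56.6 where the other 9 arrays lay between 26.3 and 35.7 before normalization. More probes were well above background in the TBI group (64.1 to 70.1% of them) than in the control (57.2 to 59.9%) or MASM+TBI group (56.2 to 60.2%). The controls shared slide 1 with MASM+TBI rat 3, the remaining MASM+TBI rats were on slide 3, and slide 2 held nothing but the TBI group, so that TBI and slide cannot be told apart.

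Few of these genes passed the test, and most of those that did were proteases. Mmp14 and Mmp19 were higher in both irradiated groups than in controls, Col23a1 was higher in the TBI group, and Mmp12 was lower in the TBI group. The main collagens of the tissue, among them Col1a1, Col1a2, Col3a1, Col4a1 and Col18a1, did not pass the test in any of the 3 comparisons. A gene, read by its brightest probe, was called where its limma p, adjusted by Benjamini-Hochberg, was under 0.05 and its groups differed 1.5-fold or more.

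In TBI against control, 4 of 45 genes were called (8.89%), 3 higher and 1 lower, where 5.18% of all genes were called, 2.44% higher and 2.74% lower. In MASM+TBI against control, 2 of 45 were called (4.44%), both higher, against 2.9% of all genes, 0.931% higher and 1.97% lower. In MASM+TBI against TBI, 1 of 45 was called (2.22%), lower, against 0.864% of all genes, 0.261% higher and 0.603% lower. These shares rest on 1 to 4 genes and no test set them apart from those of all genes, so the results concern the named genes and not the family. By probe, 5, 2 and 2 of 58 were called in the same order, against 4.5%, 2.35% and 1.39% of all probes.

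With the same fold change and an unadjusted p under 0.05, 9, 6 and 4 of the 45 genes passed, against 13.1%, 9.18% and 7.82% of all genes; passing at the unadjusted p means both conditions throughout. The median log2 fold change over the 45 genes was 0.13 in TBI against control, 0.00 in MASM+TBI against control and -0.15 in MASM+TBI against TBI. The medians over all genes were -0.009, -0.001 and 0.009. The comparisons share groups, so their values are given side by side and were not counted as independent. Of the 45 genes, 24 were well above background on all 10 arrays, 12 on some and 9 on none, and the medians include the dim genes.

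Among the membrane-type MMPs, which are anchored at the cell surface, 1 of 5 measured genes was called in TBI against control. The share of all genes called there was 5.18%. Mmp14, which cuts fibrillar collagen and activates Mmp2, measured 12.29, 12.24 and 12.07 in control rats 1 to 3, 13.10, 12.99 and 12.99 in TBI rats 1 to 3, and 12.89, 13.07, 12.60 and 12.90 in MASM+TBI rats 1 to 4. Every irradiated rat lay above every control, and the irradiated groups overlapped. The group means were 12.20 ± 0.11 (SD), 13.03 ± 0.06 and 12.86 ± 0.19. Mmp14 rose by 0.83 ± 0.12 (SE) in the TBI group, a 1.78-fold difference (limma adjusted p = 0.00912), and by 0.67 ± 0.11 in the MASM+TBI group, a 1.59-fold difference (limma adjusted p = 0.0218). The irradiated groups differed by -0.16 ± 0.11 (limma adjusted p = 0.517).

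The lowest irradiated value of Mmp14 was that of MASM+TBI rat 3, the rat on the slide of the controls, which lay 0.41 above their mean. In MASM+TBI against control the call was lost without control rat 2 (limma adjusted p = 0.0705), control rat 3 (0.0939), MASM+TBI rat 1 (0.0706) or MASM+TBI rat 4 (0.0629), whereas in TBI against control it held in all 6 fits that left out a rat. With the methods' t-test, which takes each gene's own spread, both calls were lost (adjusted p = 0.194 in TBI and 0.134 in MASM+TBI against control). The paper states no adjustment for that test. Unless said otherwise, it was run here in its unequal-variance form with Benjamini-Hochberg adjustment. So run, it called 0.0372%, 0.0968% and 0.00745% of all genes in the 3 comparisons, so few genes of any kind kept a call. With replicate number as a block the MASM+TBI call was lost as well (limma adjusted p = 0.0836).

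Mmp16, another membrane-type enzyme that can activate Mmp2, was read by 2 probes that disagreed. The brighter probe measured 7.15, 7.14 and 7.11 in the controls, 6.83, 6.88 and 6.98 in the TBI rats, and 7.12, 7.17, 6.93 and 7.14 in the MASM+TBI rats. The dimmer probe measured 5.81, 5.30 and 5.67 in the controls, 6.80, 6.65 and 6.37 in the TBI rats, and 5.70, 5.38, 5.90 and 5.50 in the MASM+TBI rats. On the brighter probe the TBI rats lay below the controls, and on the dimmer probe they lay above both other groups.

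The brighter probe gave -0.23 ± 0.09 in TBI against control and was not called (limma adjusted p = 0.147). The dimmer probe gave 1.01 ± 0.19 (2.02-fold, limma adjusted p = 0.0214) in TBI against control, 0.03 ± 0.17 in MASM+TBI against control (limma adjusted p = 1.00) and -0.98 ± 0.17 in MASM+TBI against TBI (limma adjusted p = 0.0351). Both probes were matched to the same transcript record, so no direction is given for Mmp16 as a gene. The dimmer probe kept its call in 2 of 6 fits that left out a rat for TBI against control and in 2 of 7 for MASM+TBI against TBI, and the adjusted p reached 0.0612 and 0.101. Both calls were also lost with only the 2 groups in the fit (adjusted p = 0.0632 and 0.0692), with replicate number as a block (0.055 and 0.141), with the methods' t-test (0.248 and 0.284). A normexp fit changed 3 things at once: it took the median spot signal, corrected it by the normexp method and added an offset of 50, which by itself compresses the folds of dim probes. There the estimates were 0.36 and -0.37, short of the fold threshold.

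Mmp15 ranged from 4.94 to 5.67 in the controls, from 5.47 to 6.96 in the TBI rats and from 5.37 to 6.47 in the MASM+TBI rats, and its highest value was that of TBI rat 3. Mmp24 lay between 5.73 and 6.35 in the control and TBI rats and between 5.60 and 5.76 in the MASM+TBI rats. Neither passed the test in any comparison, and Mmp17 was well above background on 1 of 10 arrays.

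Of 16 MMPs grouped as secreted, 7 were well above background on no array: Mmp1, Mmp8, Mmp10, Mmp11, Mmp20, Mmp21 and Mmp28. Mmp19, a secreted enzyme that cuts basement membrane proteins, measured 7.68, 7.85 and 7.95 in the controls, 8.53, 8.67 and 8.55 in the TBI rats, and 8.33, 8.47, 8.34 and 8.57 in the MASM+TBI rats. As for Mmp14, all irradiated rats lay above all controls and the irradiated groups overlapped. Mmp19 rose by 0.76 ± 0.10 in the TBI group (1.70-fold, limma adjusted p = 0.00631) and by 0.60 ± 0.10 in the MASM+TBI group (1.52-fold, limma adjusted p = 0.0173), and the irradiated groups differed by -0.16 ± 0.10 (limma adjusted p = 0.441). MASM+TBI rat 3 lay 0.51 above the mean of the controls on its own slide.

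The MASM+TBI estimate for Mmp19 stood close to the fold threshold. Its call was lost without control rat 1 (0.53, limma adjusted p = 0.046), control rat 2 (adjusted p = 0.0616), MASM+TBI rat 2 (0.58, adjusted p = 0.0471) or MASM+TBI rat 4 (0.55, adjusted p = 0.0461). A second, dimmer Mmp19 probe gave 0.38 ± 0.20 in TBI against control (limma adjusted p = 0.299) and 0.58 ± 0.19 in MASM+TBI against control (adjusted p = 0.158), in both cases with every irradiated rat above every control and no call. In the normexp fit the brighter probe gave 0.45 (limma adjusted p = 0.00561) and 0.36 (limma adjusted p = 0.012) against control, both short of the fold threshold. With the methods' t-test, which leaves the estimates unchanged, both calls were lost (adjusted p = 0.224 in TBI and 0.156 in MASM+TBI against control). The MASM+TBI call was also lost with replicate number as a block (0.55, limma adjusted p = 0.0832), and the TBI call with the mean of both probes.

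Mmp2, the gelatinase that Mmp14 activates, measured 9.45, 9.20 and 9.83 in the controls, 9.97, 9.97 and 10.53 in the TBI rats, and 10.02, 10.04, 10.14 and 10.05 in the MASM+TBI rats. The irradiated rats again lay above all controls, by a margin of less than the spread among the controls. The estimates were 0.67 ± 0.19 (limma adjusted p = 0.0824) and 0.57 ± 0.18 (limma adjusted p = 0.141), so Mmp2 was not called. In TBI against control it was called with 75th percentile scaling (0.70, limma adjusted p = 0.0425) and with slide as a random block (0.65, limma adjusted p = 0.0239). The random block used a within-slide correlation of -0.13, and with it 11% of all genes were called there, against 5.18% in the main fit. It does not separate TBI from slide. No other setting with adjustment called Mmp2. MASM+TBI rat 3 lay 0.64 above the mean of the controls on its slide.

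Mmp12, the macrophage elastase, measured 4.07, 5.28 and 5.45 in the controls, 3.22, 3.03 and 3.71 in the TBI rats, and 4.11, 3.94, 4.08 and 4.05 in the MASM+TBI rats. The TBI rats lay below every other rat, and control rat 1 lay within the narrow range of the MASM+TBI group. Mmp12 fell by 1.61 ± 0.34 on the log2 scale in the TBI group, a 3.06-fold difference (limma adjusted p = 0.0329). The MASM+TBI estimates were -0.89 ± 0.32 against control (limma adjusted p = 0.195) and 0.73 ± 0.32 against TBI (adjusted p = 0.293), and neither was called. The probe was well above background in every control and TBI rat and in 3 of 4 MASM+TBI rats, at a dim level. The TBI call was lost without control rat 2 (limma adjusted p = 0.0921), control rat 3 (0.0997), TBI rat 1 (0.073) or TBI rat 2 (0.0864). It was also lost in the normexp fit, whose offset is large beside this probe (-0.32, adjusted p = 0.0579), with only the 2 groups in the fit (adjusted p = 0.116), with replicate number as a block (0.0729) and with the methods' t-test (0.326). Without control rat 1, Mmp12 was also called lower in MASM+TBI against control (-1.31, limma adjusted p = 0.0145).

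**Figure D1:**
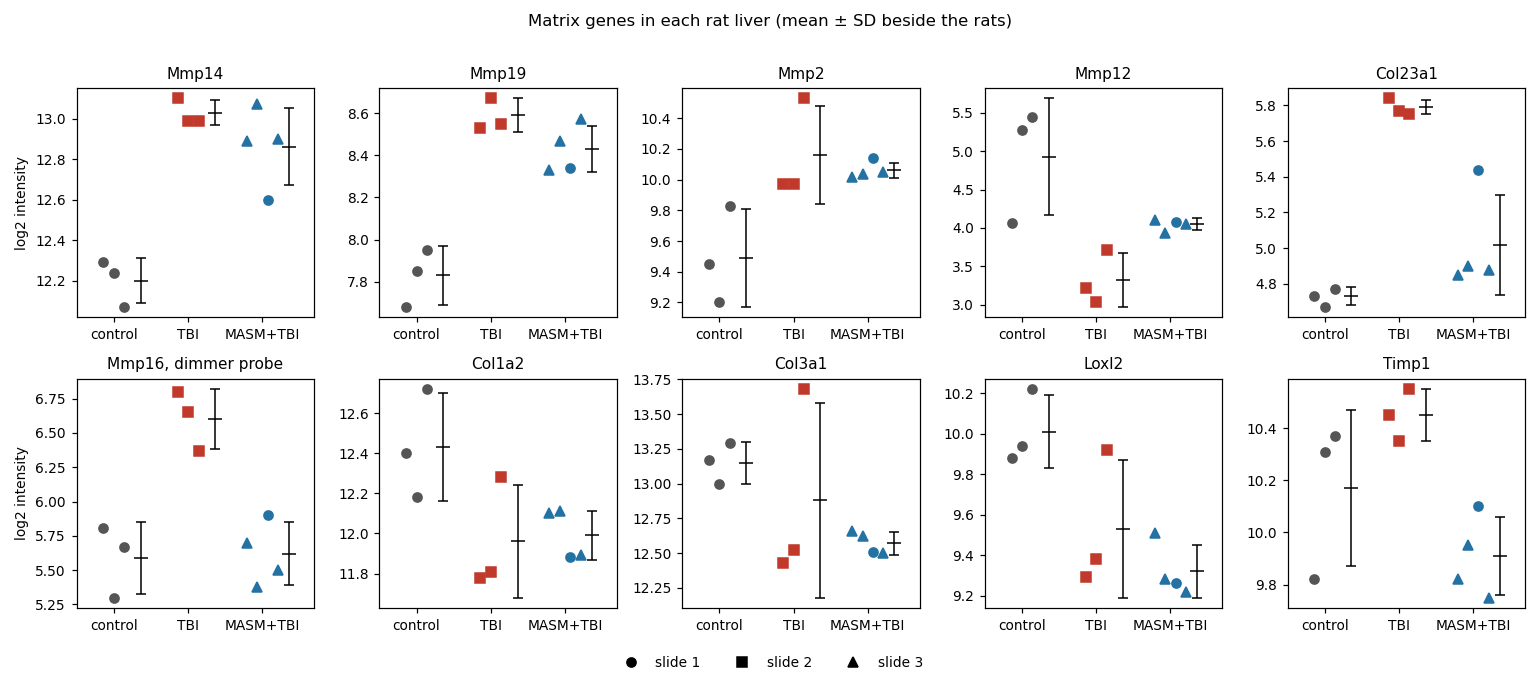
Log2 intensity (vertical axis, its own scale for each gene) of 9 genes and of the dimmer Mmp16 probe in the control (3 rats), TBI (3 rats) and MASM+TBI (4 rats) livers; each point is 1 rat, its shape gives the array slide, and the bar beside each group is the mean ± SD. Mmp14 and Mmp19 lie higher in every irradiated rat than in any control, and Col3a1 of TBI rat 3 (13.68) lies above the controls while the other TBI rats (12.43 and 12.52) lie below them.

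The gelatinase Mmp9, a product of neutrophils and macrophages, was well above background in 2 of 3 TBI rats and in no other rat. It measured 2.01, 3.35 and 2.65 in the TBI rats, 1.93, 1.94 and 1.89 in the controls, and 1.67, 2.03, 1.83 and 1.58 in the MASM+TBI rats. These values lay near the detection limit, so no fold is given, and the gene was not called (limma adjusted p = 0.165 in TBI against control and 0.153 in MASM+TBI against TBI). Without TBI rat 1 both comparisons were called by limma (adjusted p = 0.0373 and 0.0289). The lowest signal that counted as well above background differed between arrays. On the control arrays it averaged 3.88, above the Mmp9 mean of 2.67 in the TBI rats. Being above background in TBI rats alone, here and for Mmp13, Col5a3 and Col7a1 below, is therefore not a difference in level.

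The collagenase Mmp13 was well above background on 1 of 10 arrays, that of a TBI rat, and its TBI values (1.86 to 2.60) overlapped those of the controls (2.45 to 2.94). Mmp7 was above background in 2 of 3 controls, 2 of 3 TBI rats and no MASM+TBI rat. It measured 3.73, 3.90 and 4.11 in the controls, 3.24, 5.56 and 5.0 in the TBI rats, and 3.43, 3.80, 2.59 and 3.08 in the MASM+TBI rats, with TBI rat 1 among the MASM+TBI rats. Set against a background bound, TBI stood 1.69-fold above MASM+TBI with a limma adjusted p of 0.226. The bound sets the mean of the TBI rats against the lowest signal that counted as well above background on each MASM+TBI array, or the probe's own where higher. That mean includes TBI rat 1, and only 2 of 3 TBI rats were above background, so the 1.69-fold is not a strict lower limit. Without TBI rat 1 the difference was called by limma. Mmp23, grouped here with the secreted enzymes, measured 7.51, 7.10 and 7.72 in the controls, 7.78, 7.85 and 7.91 in the TBI rats, and 7.50, 7.18, 7.42 and 7.45 in the MASM+TBI rats, and was not called.

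None of the 4 inhibitors was called by limma in any comparison or passed at the unadjusted p with a 1.5-fold difference. Timp1 (1.46-fold, unadjusted p = 0.00567) and Timp3 (1.44-fold, unadjusted p = 0.0299) fell short on the fold in MASM+TBI against TBI. Timp1, the inhibitor that rises with injury and fibrosis in liver, measured 9.82, 10.31 and 10.37 in the controls, 10.45, 10.35 and 10.55 in the TBI rats, and 9.82, 9.95, 10.10 and 9.75 in the MASM+TBI rats. The MASM+TBI rats lay below all TBI rats, and control rat 1 lay among them. The estimates were 0.28 ± 0.16 in TBI against control (limma adjusted p = 0.322), -0.26 ± 0.15 in MASM+TBI against control (0.44) and -0.54 ± 0.15 in MASM+TBI against TBI (0.125).

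Timp2, the partner of Mmp14 in activating Mmp2, overlapped in all groups, with 12.39, 12.28 and 12.18 in the controls, 12.65, 12.10 and 11.68 in the TBI rats, and 12.42, 12.24, 12.04 and 12.54 in the MASM+TBI rats. Timp3, the inhibitor that binds to the matrix, measured 5.82, 6.03 and 5.62 in the controls, 5.75, 6.53 and 6.50 in the TBI rats, and 5.96, 5.60, 5.68 and 5.69 in the MASM+TBI rats. TBI rats 2 and 3 were the high ones, and without TBI rat 1 Timp3 was called by limma in TBI against control (0.70, adjusted p = 0.0447) and in MASM+TBI against TBI (-0.79, adjusted p = 0.0341). Timp4 was well above background on 1 of 10 arrays.

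Of 18 collagen chains, 1 was called in TBI against control, 0 in MASM+TBI against control and 1 in MASM+TBI against TBI by limma. The shares of all genes called were 5.18%, 2.9% and 0.864%. At the unadjusted p, 4, 1 and 1 chains passed, against 13.1%, 9.18% and 7.82% of all genes. The called chain was Col23a1, a transmembrane collagen, which measured 4.73, 4.67 and 4.77 in the controls, 5.84, 5.77 and 5.75 in the TBI rats, and 4.85, 4.90, 5.44 and 4.88 in the MASM+TBI rats. The TBI rats stood above all others, and the MASM+TBI rats stood between the groups, near the controls except for rat 3.

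Col23a1 rose by 1.06 ± 0.15 in the TBI group (2.09-fold, limma adjusted p = 0.00811) and was lower in MASM+TBI than in TBI by a log2 difference of -0.77 ± 0.14 (1.71-fold, limma adjusted p = 0.0404). In MASM+TBI against control it gave 0.29 ± 0.14 and was not called (limma adjusted p = 0.354). MASM+TBI rat 3, on the slide of the controls, lay 0.71 above their mean. The call against TBI held without MASM+TBI rat 3 (-0.90, limma adjusted p = 0.00228) and was lost without any of the other 6 rats, with adjusted p from 0.0567 when TBI rat 3 was left out to 0.107 when MASM+TBI rat 1 was. It was also lost with only the 2 groups in the fit (limma adjusted p = 0.113) and with a trended and robust prior (0.0529). Replicate number as a block (limma adjusted p = 0.166) and the methods' t-test (adjusted p = 0.352) lost it as well. In these fits the estimate lay between -0.77 and -0.73. In the normexp fit with its offset the estimates were 0.30 in TBI against control (limma adjusted p = 0.0181), short of the fold threshold, and -0.20 in MASM+TBI against TBI (limma adjusted p = 0.118), and neither was called. The other probe for Col23a1 was in no rat well above background, and the mean of both probes gave 0.33 and -0.40 with no call.

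The fibrillar collagens, which form the rope-like fibres of portal tracts and scars, held 7 measured chains, of which 0 were called by limma in the 3 comparisons and 2, 1 and 0 passed at the unadjusted p. Their median log2 fold changes were 0.01, -0.41 and -0.19 in TBI against control, MASM+TBI against control and MASM+TBI against TBI. In the same order, 13.1%, 9.18% and 7.82% of all genes passed at the unadjusted p. Col1a1, a chain of type I collagen, measured 9.54, 9.51 and 9.72 in the controls, 9.59, 9.67 and 9.55 in the TBI rats, and 9.65, 9.80, 9.81 and 9.56 in the MASM+TBI rats, with overlap throughout. A second Col1a1 probe of nearly the same brightness measured 9.65, 8.93 and 9.78, then 8.94, 8.87 and 9.46, then 9.13, 8.94, 8.78 and 9.19, in the same order. It gave -0.36 and -0.45 against control where the first gave 0.01 and 0.12, and neither probe was called. Col1a2, its partner chain, measured 12.40, 12.18 and 12.72 in the controls, 11.78, 11.81 and 12.28 in the TBI rats, and 12.10, 12.11, 11.88 and 11.89 in the MASM+TBI rats. All MASM+TBI rats and TBI rats 1 and 2 lay below the controls, and TBI rat 3 lay within them. The estimates for Col1a2 were -0.48 ± 0.18 (limma adjusted p = 0.153) and -0.44 ± 0.17 (limma adjusted p = 0.22) against control. On a second, dimmer Col1a2 probe the MASM+TBI rats (8.84 to 9.02) overlapped the controls (8.97 to 9.80). That probe gave -0.43 and -0.36 against control with no call (limma adjusted p = 0.379 and 0.559).

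Col3a1, the chain of reticular fibres, measured 13.17, 13.00 and 13.29 in the controls, 12.43, 12.52 and 13.68 in the TBI rats, and 12.66, 12.62, 12.51 and 12.50 in the MASM+TBI rats. Here TBI rat 3 was the highest of all rats, while the other irradiated rats lay below every control. With all rats, Col3a1 gave -0.28 ± 0.29 in TBI against control (limma adjusted p = 0.607) and -0.58 ± 0.27 in MASM+TBI against control (adjusted p = 0.333). Without TBI rat 3, whose array was the brightest, Col3a1 was called lower in TBI against control (-0.68 ± 0.10, limma adjusted p = 0.0134), and the count for that comparison went from 4 to 7 with Col3a1, Col9a1 and Loxl2 added. The part of that rat or its array in these values was not tested.

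Col5a1, which sets the width of type I fibres, measured between 8.48 and 9.15 in the controls, 8.24 and 9.0 in the TBI rats, and 8.30 and 8.51 in the MASM+TBI rats on its brighter probe. Its dimmer probe measured 5.03, 5.05 and 5.54 in the controls, 3.91, 4.55 and 4.71 in the TBI rats, and 4.44, 4.67, 4.62 and 4.35 in the MASM+TBI rats. On that probe every irradiated rat lay below every control, and the estimates of -0.82 ± 0.22 (limma adjusted p = 0.073) and -0.69 ± 0.21 (limma adjusted p = 0.133) were not called.

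Col11a2, a minor fibrillar chain best known from cartilage, went the other way: 5.30, 4.73 and 5.11 in the controls, 5.64, 5.76 and 5.98 in the TBI rats, and 5.33, 4.94, 5.43 and 5.33 in the MASM+TBI rats. The TBI rats lay above all others. The estimate of 0.75 ± 0.18 in TBI against control fell just short of a call (limma adjusted p = 0.0514), and MASM+TBI against TBI gave -0.54 ± 0.17 (adjusted p = 0.164). TBI against control was called with 75th percentile scaling (limma adjusted p = 0.033), with dim probes left out (0.034) and with slide as a random block (0.0148). MASM+TBI against TBI was called with 75th percentile scaling (-0.61, limma adjusted p = 0.0404). No other setting with adjustment called Col11a2. Col2a1, the main cartilage collagen, was well above background on its brighter probe in all TBI rats and in no other. By the same kind of bound as for Mmp7, the TBI mean stood 1.05-fold above the controls (limma adjusted p = 0.121). TBI rat 2, at 3.39, lay below the mean bound of 3.88, so Col2a1 was given no strict lower limit. It measured 2.79, 2.69 and 3.14 in the controls, 3.95, 3.39 and 4.52 in the TBI rats, and 3.99, 4.20, 2.98 and 3.89 in the MASM+TBI rats, so the irradiated groups overlapped (-0.19, limma adjusted p = 0.823), and the level that counted as above background differed between arrays. On a second Col2a1 probe, above background on 3 arrays, all groups overlapped. Col5a3 was above background in 2 of 3 TBI rats (4.15 and 4.11) and in no other rat, though 2 controls measured 3.97 and 4.05 and the groups overlapped (0.16, limma adjusted p = 0.845).

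Of 4 measured basement membrane chains, 0 were called by limma or passed at the unadjusted p in any comparison. Col18a1, the precursor of endostatin and a product of hepatocytes as well as vessel walls, measured 13.92, 13.81 and 13.77 in the controls, 14.02, 13.99 and 14.02 in the TBI rats, and 13.84, 13.71, 13.90 and 13.83 in the MASM+TBI rats. Its TBI values lay just above the controls, by 0.18 ± 0.08 (limma adjusted p = 0.21). On a second, dimmer Col18a1 probe the TBI rats and controls overlapped, with 0.12 and no call (limma adjusted p = 0.496). Col4a1, a main chain of type IV collagen, lay between 9.98 and 10.10 in the controls, 9.80 and 10.06 in the TBI rats, and 9.99 and 10.12 in the MASM+TBI rats. A second Col4a1 probe held TBI rat 3 highest at 10.57 and the MASM+TBI rats lowest at 9.41 to 9.52, with -0.54 ± 0.23 in MASM+TBI against control (limma adjusted p = 0.29), and was not called. Col4a4 was above background on no array. Col7a1, the anchoring fibril collagen, was above background in 2 of 3 TBI rats only, and measured 1.5, 1.47 and 3.03 in the controls, 2.92, 4.56 and 3.21 in the TBI rats, and 1.46, 1.5, 3.73 and 1.45 in the MASM+TBI rats (limma adjusted p = 0.248 in TBI against control and 0.315 in MASM+TBI against TBI).

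Among the fibril-associated collagens, which decorate the surface of fibres, 0 of 4 were called by limma and 1, 0 and 0 passed at the unadjusted p in the 3 comparisons. The shares of all genes that passed were 13.1%, 9.18% and 7.82%. Col9a1 measured 6.11, 5.75 and 6.02 in the controls, 6.99, 6.94 and 6.03 in the TBI rats, and 6.39, 6.21, 6.19 and 6.21 in the MASM+TBI rats. TBI rats 1 and 2 were the high ones and TBI rat 3 lay among the controls. The estimate was 0.69 ± 0.24 in TBI against control (limma adjusted p = 0.129), and without TBI rat 3 it was 1.00 and was called (limma adjusted p = 0.0065). Without that rat, MASM+TBI against TBI was called as well (-0.71, limma adjusted p = 0.0228). A second, dimmer Col9a1 probe, above background on all arrays, ordered the rats otherwise, with 4.63, 4.78 and 4.04 in the controls, 5.95, 3.89 and 5.02 in the TBI rats, and 5.05, 5.15, 4.15 and 5.19 in the MASM+TBI rats, and was not called.

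Col14a1, made by fibroblasts, overlapped in all groups, at 4.46 to 5.11 over all rats. On a second Col14a1 probe, above background on 9 arrays, every MASM+TBI rat (4.14 to 4.53) lay below every control (4.67 to 4.75), with -0.39 and no call (limma adjusted p = 0.381). Col6a2, a chain of the microfibrils that surround cells, ranged from 6.23 to 7.11, and Col8a1, a network collagen of vessel walls, from 5.63 to 7.03, again with TBI rat 3 at the top of its group in both. Neither Col6a2 nor Col8a1 passed at the unadjusted p in any comparison. Col9a2 was well above background in 1 of 3 controls, 3 of 3 TBI rats and 3 of 4 MASM+TBI rats, and Col9a3 in no rat.

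The lysyl oxidases, copper enzymes that cross-link collagen and elastin, held 2 measured members, and neither was called by limma. At the unadjusted p, 0, 2 and 0 passed in the 3 comparisons, both lower in MASM+TBI against control, where 9.18% of all genes passed. Loxl2, which acts in scar formation in liver, measured 9.88, 9.94 and 10.22 in the controls, 9.29, 9.38 and 9.92 in the TBI rats, and 9.51, 9.28, 9.26 and 9.22 in the MASM+TBI rats. All MASM+TBI rats lay below all controls, and TBI rat 3 lay among the controls. The estimates were -0.48 ± 0.18 in TBI against control (limma adjusted p = 0.145) and -0.70 ± 0.16 in MASM+TBI against control (adjusted p = 0.0644), the latter called with dim probes left out (adjusted p = 0.0392), with only the 2 groups in the fit (0.0359), with a trended and robust prior (0.0497) and with slide as a random block (0.0259), and not in the other settings. On slide 1, MASM+TBI rat 3 gave -0.75 against the mean of the controls. Without TBI rat 3, TBI against control was called (-0.67, limma adjusted p = 0.0278).

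Loxl1, which acts on elastin, measured 8.27, 7.72 and 9.42 in the controls, 7.95, 7.87 and 8.62 in the TBI rats, and 7.47, 7.48, 7.52 and 7.80 in the MASM+TBI rats. The controls spread widely, and the estimate of -0.90 ± 0.37 in MASM+TBI against control was not called (limma adjusted p = 0.259). Lox itself was named only through the list of changed probes that the study supplied, so its 2 probes were kept out of every count and given no test, since they were named because they had passed the study's own test. The brighter Lox probe measured 7.46, 7.06 and 8.11 in the controls, 5.28, 4.36 and 5.36 in the TBI rats, and 4.82, 4.12, 5.92 and 5.06 in the MASM+TBI rats. The dimmer one measured 5.26, 5.36 and 6.96, then 3.69, 2.73 and 3.87, then 4.0, 2.88, 4.94 and 3.73, in the same order. On both probes every irradiated rat lay below every control, and the irradiated groups overlapped.

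**Figure D2:**
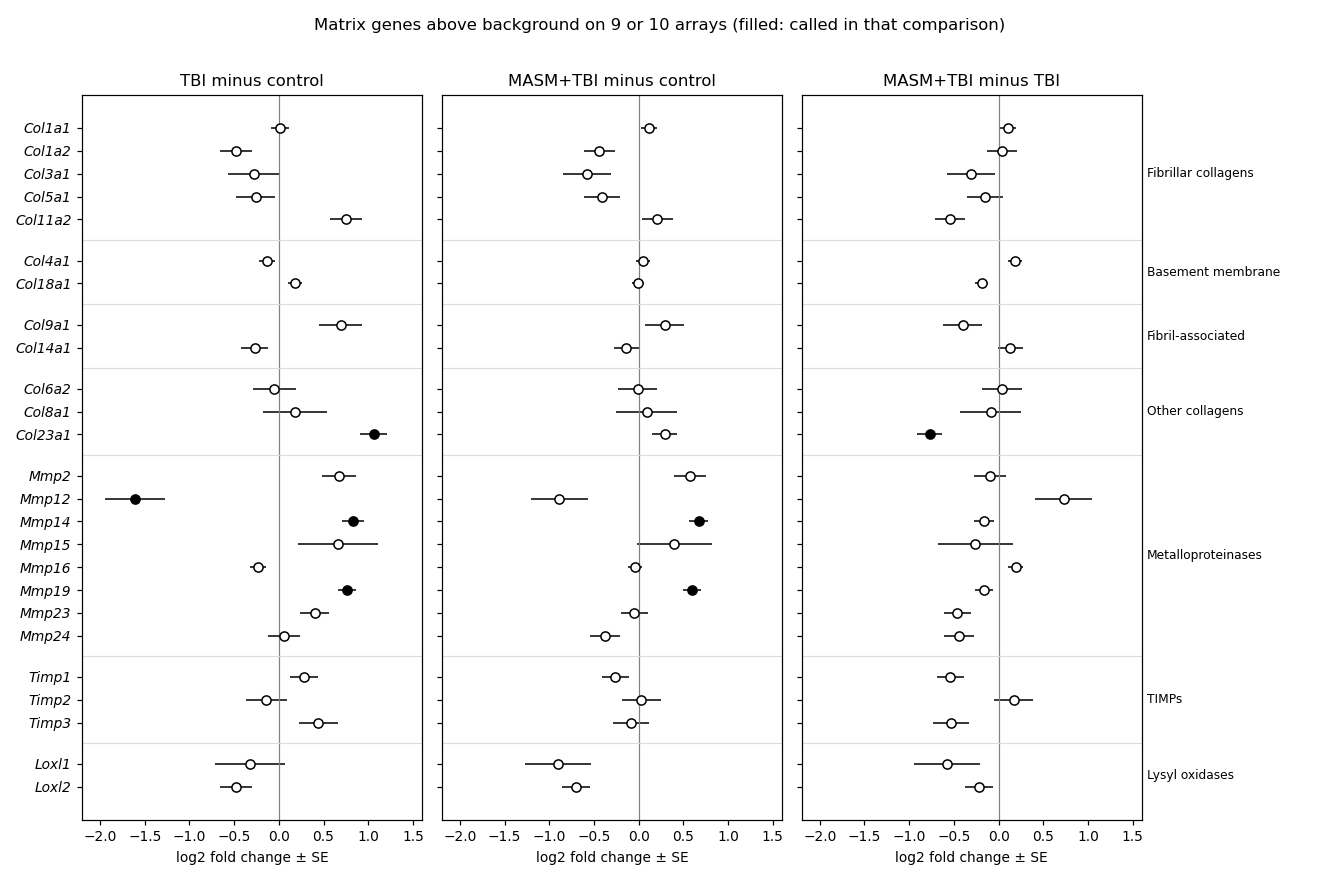
Log2 fold change ± SE (horizontal axis) of the 24 genes well above background on all 10 arrays and of Mmp12, in rows by role, for TBI minus control, MASM+TBI minus control and MASM+TBI minus TBI; filled points were called in that comparison. Mmp14 and Mmp19 are filled in both comparisons with control, Mmp12 in TBI minus control, and Col23a1 in TBI minus control and MASM+TBI minus TBI.

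Of 25 listed enzymes and chaperones that fold, trim and take up collagen 20 were measured, with 0 called in TBI against control (2 at the unadjusted p), 1 called higher in MASM+TBI against control (2 at the unadjusted p) and 0 called in MASM+TBI against TBI (1 at the unadjusted p) by limma. The shares of all genes called were 5.18%, 2.9% and 0.864%, and 13.1%, 9.18% and 7.82% passed at the unadjusted p. The medians of the 20 measured genes were -0.09, -0.04 and 0.06. The called gene was Ctsk, a lysosomal protease that digests collagen, which measured 7.31, 6.94 and 6.82 in the controls, 7.47, 7.60 and 7.70 in the TBI rats, and 7.96, 7.94, 7.99 and 7.83 in the MASM+TBI rats. The groups did not overlap, and the MASM+TBI rats were highest. Ctsk rose by 0.90 ± 0.12 in MASM+TBI against control (limma adjusted p = 0.00846), while TBI against control gave 0.57 ± 0.13 (adjusted p = 0.0442), short of the fold threshold.

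Other genes of that list were not called. Serpinh1, the collagen-specific chaperone, measured 8.77, 9.10 and 9.58 in the controls, 8.56, 8.54 and 8.91 in the TBI rats, and 8.70, 9.09, 8.65 and 8.54 in the MASM+TBI rats. Sparc, a secreted collagen-binding protein, measured 14.08, 14.01 and 14.47 in the controls, 13.48, 13.54 and 14.32 in the TBI rats, and 13.74, 13.79, 13.63 and 13.59 in the MASM+TBI rats. For Sparc, as for Col1a2, Col3a1 and Loxl2, TBI rat 3 lay with or above the controls and the other irradiated rats lay lower.

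Pcolce, which speeds the trimming of procollagen, measured 10.15, 10.09 and 10.71 in the controls, 10.77, 12.38 and 11.83 in the TBI rats, and 10.88, 10.58, 10.30 and 10.55 in the MASM+TBI rats. It gave 1.34 ± 0.37 in TBI against control (limma adjusted p = 0.0776) and -1.09 ± 0.35 in MASM+TBI against TBI (limma adjusted p = 0.172), and both passed at the unadjusted p. Of 38 listed matrix proteins, growth factors and receptors, 32 were measured and 0 were called by limma in any comparison, with 2 passing at the unadjusted p in each. At that p, 13.1%, 9.18% and 7.82% of all genes passed. The medians of the 32 measured genes were 0.04, -0.07 and -0.14. Fibronectin (Fn1) lay between 15.15 and 15.51 in all rats, and 7 genes, among them Postn, Tnc, Lum and Smad3, were above background on no array.

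Markers of the cells that make or carry these proteins were read gene by gene, and no list was tested as a whole. Of 14 stellate cell and fibroblast markers 11 were measured, of which 2 were called lower in TBI against control, 1 lower in MASM+TBI against control and 0 in MASM+TBI against TBI by limma. Of all genes, 2.74%, 1.97% and 0.603% were called lower in these comparisons. Lrat, the retinol-storing enzyme of stellate cells, measured 11.31, 11.12 and 11.09 in the controls, 10.43, 10.51 and 10.71 in the TBI rats, and 10.55, 10.64, 10.61 and 10.51 in the MASM+TBI rats. All irradiated rats lay below all controls, by -0.62 ± 0.10 (limma adjusted p = 0.0116) and -0.60 ± 0.09 (limma adjusted p = 0.0147). Lhx2, a stellate cell transcription factor, fell in the TBI group by 0.63 ± 0.10 (limma adjusted p = 0.0108) and was not called in the MASM+TBI group (-0.29, adjusted p = 0.136).

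In each comparison with control, 9 of the 11 estimates were below 0 and 2 above. In TBI against control Reln gave 0.40, Des -0.03 and Hand2 -0.02. Thy1 was above background on no array. The part of these cells in the collagen and Loxl2 values was not tested. Fewer cells of a type and less RNA per cell cannot be told apart in whole liver.

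All 9 macrophage markers were measured and none was called by limma, with 1, 0 and 6 passing at the unadjusted p in the 3 comparisons. In TBI against control 8 of the 9 estimates were above 0 (median 0.28), in MASM+TBI against control 1 was (median -0.36), and in MASM+TBI against TBI all 9 were below 0 (median -0.77); there all 6 that passed at the unadjusted p were lower, where 7.82% of all genes passed in either direction. Their summed intensity was 90720, 139900 and 116600 in the controls, 95160, 175900 and 141300 in the TBI rats, and 89560, 94590, 77850 and 73490 in the MASM+TBI rats, with Clec4f the brightest and every marker above background on all arrays. Control rat 1 and TBI rat 1 were the lowest of their groups in this sum. The part of macrophages in the MMP and TIMP values was not tested.

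Of 8 neutrophil markers 6 were measured, 2 of them above background on all arrays, and none was called by limma or passed at the unadjusted p. Their summed intensity was 531.3, 269.6 and 626.4 in the controls, 378.1, 792.8 and 583.7 in the TBI rats, and 813.2, 625.0, 360.5 and 428.0 in the MASM+TBI rats, with S100a9 the brightest and Elane above background on no array. Neutrophil collagenase, Mmp8, was itself above background in no rat. Of 6 lymphocyte markers 4 were measured and 2 were called lower in each comparison with control, Cd79b of B cells and Cd3e of T cells, of which Cd3e was above background on no array. The shares of all genes called lower were 2.74% in TBI and 1.97% in MASM+TBI against control.

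The summed lymphocyte intensity was 416.9, 536.4 and 461.2 in the controls, 262.4, 169.1 and 357.1 in the TBI rats, and 296.7, 344.9, 176.0 and 315.1 in the MASM+TBI rats, with Cd3d the brightest. Every irradiated rat lay below every control in this sum, and its part in the matrix genes was not tested. The hepatocyte (6 of 6 measured), sinusoidal endothelium (5 of 8) and bile duct (2 of 4) lists held no called gene in any comparison by limma, with 0, 0 and 0 passing at the unadjusted p in TBI against control, 1, 1 and 0 in MASM+TBI against control, and 0, 0 and 0 in MASM+TBI against TBI. Across all genes, 13.1%, 9.18% and 7.82% passed in these comparisons. Of 5 mast cell markers 4 were measured, 3 of them above background on no array, among these Kit, which was called lower in TBI against control. Cpa3, the mast cell carboxypeptidase, was above background in all control and TBI rats and in no MASM+TBI rat, and was called lower there by limma against control (adjusted p = 0.00489) and against TBI (adjusted p = 0.035).

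Promoter sequences were at hand for Mmp12 and Col23a1 among the called genes, and both are shown. The 250 bases before the start of each gene, from RefSeq on the rat build GRCr8, were searched for the AP-1 letters TGANTCA on both strands and the TATA letters TATAAA on the strand of the gene. Of 33469 rat promoters, 6.34% held the AP-1 letters, 8.06% the TATA letters and 0.693% both. Of 60 promoters of collagen, MMP, TIMP and lysyl oxidase genes, 8 held the AP-1 letters, 12 the TATA letters and 7 both, and all 7 belonged to MMPs: Mmp1, Mmp3, Mmp7, Mmp10, Mmp12, Mmp13 and Mmp20. Of these 7 genes only Mmp12 was called in any comparison, and Mmp1, Mmp10 and Mmp20 were above background on no array. A match describes the letters and not the binding of a factor. The Mmp12 stretch (chr8:12866402-12866651, plus strand) holds 1 match of each kind, in capitals, and the Col23a1 stretch (chr10:36050077-36050326, plus strand) holds no match.
Mmp12: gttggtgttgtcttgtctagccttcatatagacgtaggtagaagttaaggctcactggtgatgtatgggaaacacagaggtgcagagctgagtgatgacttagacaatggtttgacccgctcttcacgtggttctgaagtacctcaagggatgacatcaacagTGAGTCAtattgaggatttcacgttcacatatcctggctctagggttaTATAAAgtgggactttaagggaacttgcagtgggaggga
Col23a1: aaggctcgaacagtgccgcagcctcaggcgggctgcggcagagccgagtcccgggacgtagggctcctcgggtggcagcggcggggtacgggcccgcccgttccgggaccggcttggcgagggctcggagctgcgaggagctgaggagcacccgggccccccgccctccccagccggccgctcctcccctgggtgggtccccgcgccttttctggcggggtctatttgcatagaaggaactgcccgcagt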

How the data were processed

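The authors hybridised Cy3-labelled liver RNA of 10 rats to 44K rat arrays and read them with Agilent Feature Extraction 10.7.3.1, and the deposited values are the spot intensity after that software's background subtraction. Control and outlier spots were left out, log2 intensity was quantile normalized, the normalization the authors' methods name, and spots of a probe were averaged. Probes without a value on every array were dropped, leaving 40945. Of 41012 probes, 20707 carried a RefSeq accession and 16968 received a symbol from the GRCr8 gene table. A gene was read by its brightest probe. limma 3.58.1 in R fitted the 3 group means over all probes, with Benjamini-Hochberg adjustment, after the fit was tested on simulated data. Members and lists were chosen with earlier results of these data known. Genes were named where called, where they passed at the unadjusted p above background, among the 10 brightest, or as textbook members. Other normalizations, sources, filters, tests, blocks and left-out rats were tried. The deposited table of values equalled the scanner values (largest difference 0). Protein sequences were not analysed here. The number of arrays limits the precision, and with 3 or 4 rats a group, a p that misses the threshold does not show that values were alike. The study's text names another radiation dose than the labels, which were followed here, and the array labels of 1 of its figures place control and TBI the other way.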

Additional observations from a re-analysis of the deposited data

Results flagged for a closer look

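In the group of 4 MASM+TBI rats, the 28 genes well above background in at least 1 of these rats were examined, and 4 had 1 rat far from the others, by a gap to the nearest rat, divided by the range of the group, above Dixon's 95% critical value. With 28 genes each set against a 95% value, some would pass by chance. The share of all genes past that value was not measured, so the count of 4 is not a result about the family. Mmp3 (gap 0.977) measured 4.07 in rat 4 and 1.55 to 1.61 in the others, and Mmp27 (gap 0.846) measured 8.16 in rat 2 and 1.35 to 2.40 in the others; each was well above background in that rat alone of its group and was examined only because of it, so its gap follows in part from the choice of genes. Col23a1 (gap 0.915) measured 5.44 in rat 3, the rat on the slide of the controls, and 4.85 to 4.90 in the others. Col9a1 (gap 0.877) measured 6.39 in rat 1 and 6.19 to 6.21 in the others.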

How the results depend on the processing

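The 9 calls of the main fit among named genes, 2 of them those of the dimmer Mmp16 probe, had 137 values under other settings that bear on them: 81 kept the call and 56 lost it. The call was kept in 52 of 74 values in TBI against control, 19 of 32 in MASM+TBI against control and 10 of 31 in MASM+TBI against TBI. No called value changed sign. The deposited table, which repeats the main input, is not counted in these. The counts of called genes (4 in TBI against control, 2 in MASM+TBI against control, 1 in MASM+TBI against TBI) moved more, and the share of all genes called, given in brackets, often moved with them. In TBI against control (main fit 5.18%) they were 13 with 75th percentile scaling (15%; 5 higher and 8 lower, 7 of the 13 above background on no array), 1 with normexp on the median spot signal plus an offset of 50, which compresses dim folds (2.02%), 1 with the methods' t-test after adjustment (0.0372%), 8 with slide as a random block (11%), 2 with the mean of all probes of a gene (5.1%) and 9 at the unadjusted p (13.1%). In MASM+TBI against control (main fit 2.9%) they were 1 with normexp (1.7%), 0 with the methods' t-test after adjustment (0.0968%) and 6 at the unadjusted p (9.18%). Slide as a fixed block leaves 1 MASM+TBI rat to compare with the controls, so its results are not reported. In MASM+TBI against TBI (main fit 0.864%) they were 7 with 75th percentile scaling (9.71%; 5 higher and 2 lower, 5 of the 7 above background on no array), 4 at the unadjusted p (7.82%), and 0 with normexp (0.0819%), with only the 2 groups in the fit (0.417%), with the methods' t-test (0.00745%), with a trended and robust prior (0.745%) and with the mean of all probes (0.864%). At the methods' own threshold, without adjustment, their t-test gave 6, 4 and 1 genes, against 7.43%, 6.75% and 3.37% of all genes. Leaving out 1 rat gave 3 to 7, 0 to 2 and 0 to 3. The cause of these shifts was not tested.

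Rats share only a number between groups: deviations of same-numbered rats correlated between -0.13 and 0.17, with 1 of 9 pairs over 0.1. With replicate number as a block, 3, 0 and 0 genes were called (2.84%, 0.857% and 0.0596% of all genes). Signal over background sets the limit for 21 of the 45 genes, which were not well above background on every array. The within-slide correlation used for the random block was -0.13.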
